A study of Rattus norvegicus with 6 samples.

Results

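Retinoic acid clearance and storage is covered here by 5 genes: Cyp26a1, Cyp26b1, Cyp26c1, Dhrs3 and Lrat. They were chosen by symbol, each matched 1 row of the deposited table of 23096 protein-coding genes, and no symbol was repeated. All 5 passed the filter on low values (normalised counts of 10 or more in 3 or more libraries). Ventricular cardiomyocytes were isolated from Wistar rat embryos at E18.5 by enzymatic digestion and cultured in medium with 7% fetal bovine serum. After 24 h the medium was supplemented for 48 h with all-trans retinoic acid (ATRA) at 10 µM, an active vitamin A metabolite, or with DMSO as vehicle, and poly(A) RNA was sequenced from 3 libraries of each group. Pre-plating was used to lower the share of fibroblasts. Whether replicates stem from separate isolations is not stated, so the p-values reflect only how far these libraries scatter, which may be technical.

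Retinoic acid acts through nuclear receptors, the RARs and RXRs, which bind short DNA repeats near target genes. Its level in a cell is set by its synthesis from retinol through retinaldehyde and by its removal. The CYP26 enzymes are cytochrome P450s that hydroxylate retinoic acid to more polar products and so end its action. DHRS3 reduces retinaldehyde to retinol, the step before retinoic acid, and LRAT joins a fatty acid to retinol to form retinyl esters, the storage form. Cyp26a1, Dhrs3 and Lrat are textbook retinoic acid target genes in several tissues, and in the developing heart CYP26 activity limits where retinoic acid acts.

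The start regions of the 3 Cyp26 genes are printed because the retinoic acid response element of Cyp26a1 is known to lie close to its start in the mouse and in humans, and the rat windows can be compared for it. They are the 250 bases before the start of each gene, 5′ to 3′ on the gene's own strand, from RefSeq in the build GRCr8. Capitals mark each match, on either strand, to AGGTCA or its variant AGTTCA or the variants with a first G, which are GGGTCA and also GGTTCA, the core hexamers of retinoic acid response elements.
Cyp26a1, chr1:244883572-244883821, plus strand: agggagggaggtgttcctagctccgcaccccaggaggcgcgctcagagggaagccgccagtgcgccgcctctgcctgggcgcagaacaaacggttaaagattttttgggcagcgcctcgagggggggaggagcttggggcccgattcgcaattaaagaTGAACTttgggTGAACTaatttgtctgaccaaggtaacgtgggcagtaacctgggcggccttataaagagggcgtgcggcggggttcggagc
Cyp26b1, chr4:118616177-118616426, minus strand: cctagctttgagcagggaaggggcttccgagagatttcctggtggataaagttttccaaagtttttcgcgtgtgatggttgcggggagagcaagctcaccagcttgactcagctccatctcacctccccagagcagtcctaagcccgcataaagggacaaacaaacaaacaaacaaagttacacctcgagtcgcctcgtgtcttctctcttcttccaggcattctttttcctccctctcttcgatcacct
Cyp26c1, chr1:244870162-244870411, plus strand: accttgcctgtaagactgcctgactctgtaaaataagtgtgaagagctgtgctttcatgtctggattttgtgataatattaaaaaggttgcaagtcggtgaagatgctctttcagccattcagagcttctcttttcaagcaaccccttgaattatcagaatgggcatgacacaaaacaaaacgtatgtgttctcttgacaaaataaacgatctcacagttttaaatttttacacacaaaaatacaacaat

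The Cyp26a1 window held a pair of hexamers on the strand opposite to the gene, which read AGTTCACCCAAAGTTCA on that strand. This is a direct repeat of AGTTCA with 5 bases between the copies, and it spans from 92 to 76 bases before the start. A direct repeat of any of the 4 hexamers with this spacing was found in 109 of 33469 windows of the same length, or 0.326%. Repeats with a spacing of 1 or 2 bases, which retinoid receptors also bind, were found in 0.194% and 0.137% of windows and in none of the 5 genes. A single hexamer was found in 39.1% of windows, and the windows of Cyp26b1, Cyp26c1, Dhrs3 and Lrat had none, which says only that these letters are not in these 250 bases. Apart from Cyp26a1, 4 tested genes had the repeat with a spacing of 5 in their window, of which 1 rose and 1 fell. Of the 9839 tested genes with a window, 2060 rose, or 20.9%, and 1910 fell. With only 4 genes, the shares cannot be compared. The match is a description of the sequence, and binding was not measured.

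All 5 genes rose after ATRA, and all were called by limma (Benjamini-Hochberg adjusted p under 0.05 over 13110 tested genes), which called 20.3% of all tested genes higher, 18.9% lower and 39.3% in either direction. For all 5, every ATRA library lay above every vehicle library, which held for 27.6% of tested genes. The reverse held for 26.2%, and 53.8% did not overlap in either direction. Cyp26c1 and Lrat, with at most 3.87 and 4.34 normalised counts in vehicle, passed the filter through the ATRA libraries alone. For them the lack of overlap was therefore fixed by the filter. Cyp26a1, Cyp26b1, Cyp26c1 and Lrat ranked 1, 2, 3 and 4 among all tested genes by log2 fold change, and Dhrs3 ranked 15. A log2 fold change of at least 8 was reached by 4 tested genes, or 0.0305%, and these were the same 4. Ranks 2 and 3 depend on the method, since DESeq2 on the reads gave 9.50 for Cyp26c1 and 9.21 for Cyp26b1. With 5 in place of 1 added to the normalised counts, Lrat was at 7.56, below 8. The fold changes in the text are of mean normalised counts, reads divided by the authors' size factor of the library. The log2 values are from limma on log2(normalised count + 1) with their standard error, with n = 3 libraries per group.

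Cyp26a1 (ENSRNOG00000016750) encodes the CYP26 enzyme that clears most retinoic acid in many embryonic tissues. Its normalised counts were 56.1, 35.6 and 40.2 in vehicle replicates 1 to 3 and 42168, 42216 and 42939 in ATRA replicates 1 to 3. The groups were far apart, and the lowest ATRA library was 751-fold above the highest vehicle library. The mean rose 965-fold, from 44.0 ± 10.8 to 42441 ± 432 (SD, n = 3), with a log2 fold change of 9.91 ± 0.14 (limma adjusted p = 3.04e-08). Cyp26a1 went from ranks between 10789 and 11369 of all genes by FPKM to ranks between 56 and 58. FPKM stands for fragments per kilobase of gene and per total fragments, and allows levels of genes of different length to be compared. Here it was scaled between libraries as the normalised counts were, not by the total of each library.

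Cyp26b1 (ENSRNOG00000015076), the relative that acts in limb, skin and gonad development, had normalised counts of 109, 67.7 and 114 in the vehicle libraries and 54154, 58928 and 58586 in the ATRA libraries. Vehicle replicate 2 was the lowest, and the groups did not overlap. The mean rose 589-fold, from 97.1 ± 25.6 to 57223 ± 2663 (SD, n = 3), with a log2 fold change of 9.22 ± 0.18 (limma adjusted p = 5.09e-08). Cyp26b1 had more normalised counts than Cyp26a1 in every library, whereas per length the order was the reverse in ATRA: 432 ± 20.1 FPKM for Cyp26b1 and 811 ± 8.25 FPKM for Cyp26a1 (SD, n = 3).

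Cyp26c1 (ENSRNOG00000030698) encodes the family member known mainly from the embryonic hindbrain, inner ear and face. It had 4, 2 and 3 reads in the vehicle libraries, close to the 3 reads that a count of 0 allows, and 2254, 1926 and 1991 reads in the ATRA libraries. The vehicle level thus rests on 9 reads in all, while every ATRA library had a clear signal. The ratio of reads, scaled by the size factors, was 726 with an exact 95% counting interval of 382 to 1589, which covers counting error only. The log2 fold change was 9.10 ± 0.22 (limma adjusted p = 2.03e-07), a value that depends on the pseudocount. The authors' deposited table gives 9.50 with a standard error of 0.49.

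Lrat (ENSRNOG00000025608), the gene of the retinol-esterifying enzyme that is prominent in hepatic stellate cells and the eye, was likewise close to silent in vehicle, with 2, 5 and 3 reads. The ATRA libraries had 1426, 1508 and 1537 reads. The lowest ATRA library lay 322-fold above the highest vehicle library in normalised counts. The scaled ratio of reads was 473 with an exact 95% counting interval of 257 to 988. The log2 fold change was 8.56 ± 0.23 (limma adjusted p = 3.45e-07). The authors' deposited table gives a log2 fold change of 8.89 with a standard error of 0.47.

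Dhrs3 (ENSRNOG00000015736), the retinaldehyde reductase, was the only one of the 5 with a vehicle level above 1 FPKM in every library. Its normalised counts were 269, 239 and 302 in the vehicle libraries and 8367, 8360 and 8833 in the ATRA libraries. The groups did not overlap, and the lowest ATRA library was 27.7-fold above the highest vehicle library. The mean rose 31.6-fold, from 270 ± 31.8 to 8520 ± 271 (SD, n = 3), with a log2 fold change of 4.98 ± 0.09 (limma adjusted p = 3.04e-08).

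**Figure D1:**
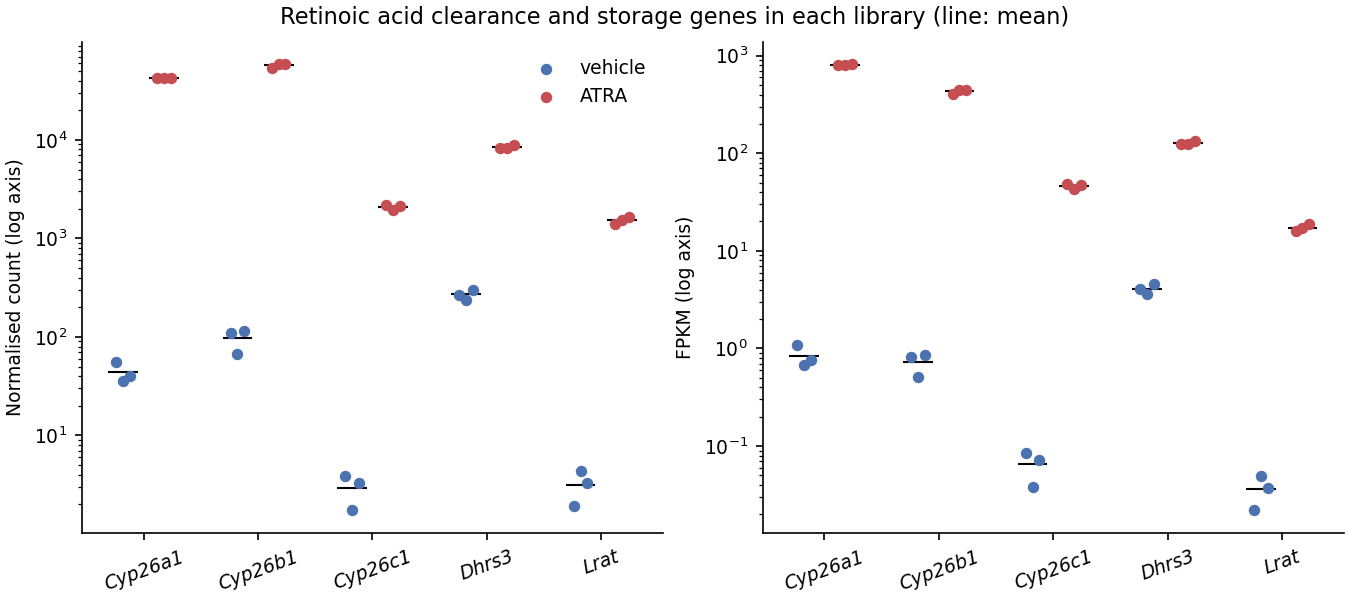
Levels of the 5 genes in each library as normalised counts (left) and FPKM (right), both on log axes, with vehicle in blue, ATRA in red, replicates 1 to 3 from left to right and a line at the mean. Every ATRA library lies above every vehicle library for each gene, and the ATRA libraries lie closer together than the vehicle libraries.

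The order of the levels changed. In vehicle, Dhrs3 was the highest at 4.05 ± 0.48 FPKM, followed by Cyp26a1 at 0.840 ± 0.206, Cyp26b1 at 0.733 ± 0.193, Cyp26c1 at 0.0652 ± 0.0243 and Lrat at 0.0360 ± 0.0136 FPKM (SD, n = 3). The neighbours Cyp26a1 and Cyp26b1 overlapped between libraries, as did Cyp26c1 and Lrat, so their order is not set beyond the spread. After ATRA the order was Cyp26a1, Cyp26b1, Dhrs3 at 128 ± 4.06, Cyp26c1 at 46.4 ± 3.06 and Lrat at 17.3 ± 1.52 FPKM (SD, n = 3), with no overlap between any neighbours. The vehicle libraries also scattered more: the coefficient of variation was 24.5% for Cyp26a1 and 26.3% for Cyp26b1 in vehicle, and 1.02% and 4.65% after ATRA. Over all tested genes its median was 9.92% in vehicle and 4.72% after ATRA. For Cyp26a1 and Cyp26b1, counting error alone would give 14.9% and 10.1% in vehicle, and 0.491% and 0.423% after ATRA. Vehicle replicate 2 was the lowest vehicle library for Cyp26a1, Cyp26b1, Cyp26c1 and Dhrs3, but the highest for Lrat. For both Cyp26c1 and Lrat the vehicle reads were 5 or fewer per library. For Dhrs3 the vehicle reads before scaling were nearly equal, at 278, 275 and 278.

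The summed FPKM of the 3 Cyp26 genes was 1.23 to 1.98 in vehicle and 1263 to 1310 after ATRA. Cyp26a1 took 45.2% to 55.3% of this sum in vehicle and 62.3% to 63.8% after ATRA, and Cyp26b1 took 41.6% to 50.6% and then 32.4% to 34.4%. Cyp26c1 stayed a minor part, at 3.11% to 4.30% in vehicle and 3.32% to 3.86% after ATRA, although the gene itself rose.

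**Figure D2:**
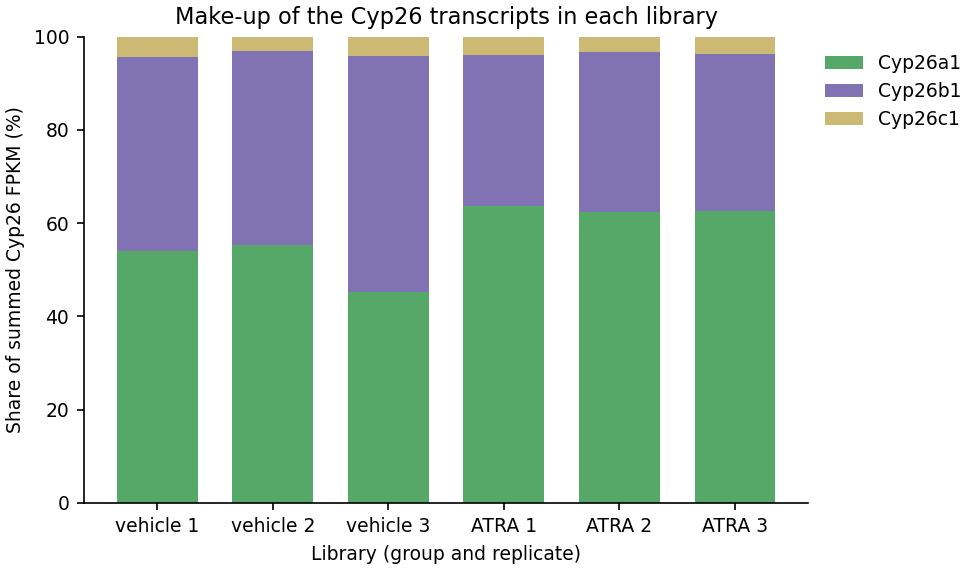
Share of the summed Cyp26 FPKM taken by each of the 3 genes, in percent, in each of the 6 libraries. The Cyp26a1 share was at least 62.3% in the ATRA libraries and at most 55.3% in the vehicle libraries.

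The ratio of Cyp26a1 to Cyp26b1 in FPKM was 0.892 to 1.33 in the vehicle libraries and 1.81 to 1.97 in the ATRA libraries, without overlap. On the log2 scale the ratio differed by 0.70 between the groups (two-sided exact permutation p = 0.1, the smallest that 3 against 3 libraries allow), and by 0.51 without vehicle replicate 3. Among the 10 pairs of the 5 genes, 5 had ratios that did not overlap between the groups, each with p = 0.1 in the exact permutation test and 0.2 after Benjamini-Hochberg adjustment over the 10 pairs. These were Cyp26a1 with Cyp26b1 and the 4 pairs with Dhrs3, whose rise was the smallest of the 5. The pairs share genes, and the 4 with Dhrs3 restate its smaller fold change. The share of such pairs over all tested genes was not computed. For Cyp26b1 and Cyp26c1 the log2 ratio differed by -0.31 (exact permutation p = 0.2), and for Cyp26b1 and Lrat by 0.26 (exact permutation p = 0.7), both with overlapping groups. No pair could pass the threshold in this design.

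Genes whose profile over the 6 libraries was most like the mean profile of the 5 were taken by the root mean square distance between gene-centred log2 profiles. The nearest were, in order, Lmln2, Vil1, Coro2a and Irag1, at distances from 1.16 for Lmln2 to 1.43 for Irag1 on the log2 scale, while the 5 genes themselves lay between 0.35 for Lrat and 1.69 for Dhrs3. Vil1, which encodes the actin-binding protein villin, had normalised counts of 130, 182 and 145 in vehicle and 8320, 8129 and 8309 after ATRA, without overlap. Coro2a, a coronin gene, was listed at 0 in all 3 vehicle libraries and reached 42.1 to 56.4 normalised counts after ATRA. With 2 groups, likeness of this kind mostly says that a gene rose by a similar amount.

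Cyp26c1 and Cyp26a1 are next to each other on chromosome 1 in the RefSeq table for GRCr8, when unnamed loci are left out. The nearest 2 named protein-coding genes on each side of the 5 genes were also followed, a set chosen by position only. Of 16 such neighbours 9 were tested, and their log2 fold changes lay between -0.60 and 0.87. Exoc6, an exocyst subunit gene beside Cyp26c1, rose with a log2 fold change of 0.66 ± 0.12 (limma adjusted p = 0.0041), and Myof, a membrane repair gene beyond Cyp26a1, fell by 0.60 ± 0.09 on the log2 scale (limma adjusted p = 0.0014). Exoc6b beside Cyp26b1 rose (0.61 ± 0.07), as did Vps13d beside Dhrs3 (0.72 ± 0.07) and Rbm46 beside Lrat (0.87 ± 0.30, limma adjusted p = 0.049). In all, 6 of the 9 rose, 1 fell and 2 were not called, while 20.3% of all tested genes were called higher and 18.9% lower.

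Among other cytochrome P450 genes no rise came near those of the Cyp26 genes. Of 74 P450 symbols listed, 23 were tested, and of the 20 outside the Cyp26 family 5 rose, 3 fell and 12 were not called, or 40.0% called beside 39.3% of all tested genes. The largest rise among them was that of Cyp11a1, the cholesterol side-chain cleavage enzyme, at 1.82 ± 0.38 on the log2 scale, from 6.60 to 24.3 mean normalised counts. The Cyp26 genes took 0.364% to 0.751% of the summed P450 FPKM in vehicle and 82.7% to 83.3% after ATRA.

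Of 6 other listed P450s that can oxidise retinoids 3 were tested, of which 2 fell, beside 18.9% of all tested genes, and 1, Cyp2s1, was not called (-0.68 ± 0.39, limma adjusted p = 0.21). Cyp1a1, the dioxin-inducible P450, was 9.53-fold lower (-3.16 ± 0.27, limma adjusted p = 0.00012), its normalised counts being 6007 ± 2746 without and 630 ± 51.8 with ATRA (SD, n = 3). Cyp1b1, which also converts retinol to retinaldehyde, was 4.02-fold lower (-1.91 ± 0.28, limma adjusted p = 0.0015). Cyp2c22 was listed at 0 in all libraries.

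The electron donors and partners of P450s went in both directions. Of 7 tested genes 1 rose, 2 fell and 4 did not pass, or 42.9% called beside 39.3% of all tested genes, and their median log2 fold change was 0.01 beside 0.004 over all tested genes. Por, the reductase that supplies electrons to microsomal P450s including the CYP26 enzymes, rose 1.37-fold (0.47 ± 0.09, limma adjusted p = 0.0049). Pgrmc1, a haem-binding P450 partner, fell by 0.43 ± 0.08 on the log2 scale (limma adjusted p = 0.005). The fall of the cytochrome b5 gene Cyb5a (-0.29 ± 0.10, limma adjusted p = 0.045) was called neither without ATRA replicate 1, 2 or 3 (adjusted p = 0.15, 0.14 and 0.051) nor without vehicle replicate 1 or 2 (0.099 and 0.11).

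**Figure D3:**
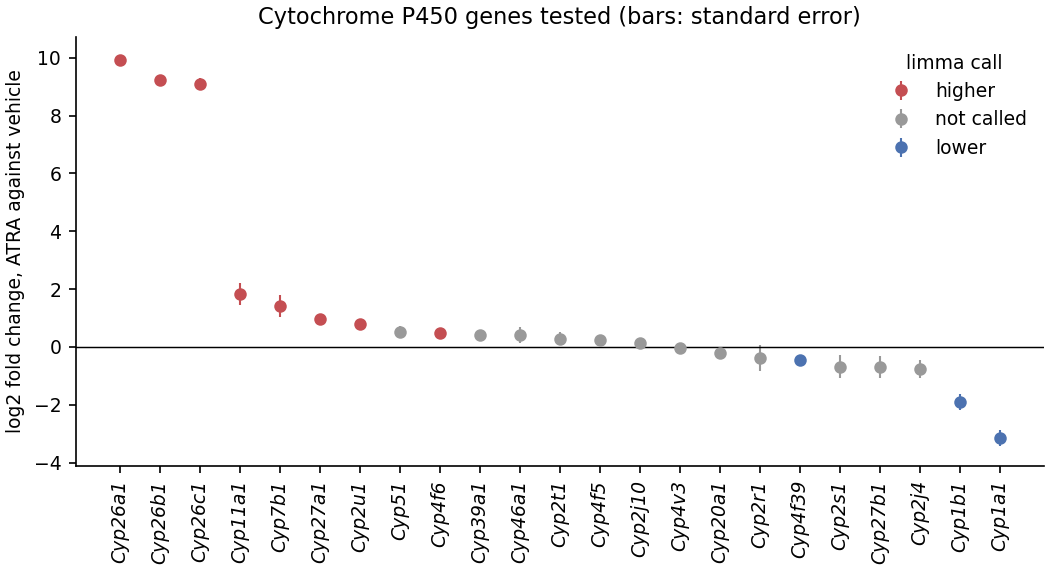
Log2 fold change of the 23 tested cytochrome P450 genes after ATRA against vehicle, in order of size, with standard errors from limma. The Cyp26 genes stand at 9.10 to 9.91, while all others lie between -3.16 and 1.82.

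Most other tested enzymes that can reduce retinaldehyde, as DHRS3 does, also rose. Of 6 listed reductases 5 were tested, of which 4 rose and 0 fell, beside 20.3% of all tested genes called higher, and their median log2 fold change was 0.40. Dhrs7 rose 1.64-fold (0.71 ± 0.06, limma adjusted p = 0.00015), Rdh13 1.45-fold (0.54 ± 0.12, limma adjusted p = 0.0089), Dhrs4 1.31-fold (0.40 ± 0.08) and Rdh11 1.28-fold (0.36 ± 0.07). Rdh14 was not called (0.21 ± 0.11, limma adjusted p = 0.16).

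All 8 tested genes of retinyl ester turnover, of 11 listed, rose, beside 20.3% of all tested genes, and their median log2 fold change was 0.80. Most of these genes also serve triglyceride metabolism. Dgat1 and Dgat2, acyltransferases of triglyceride synthesis of which DGAT1 can also esterify retinol, rose 1.39-fold (0.49 ± 0.12) and 1.97-fold (0.98 ± 0.09). Lipe, the hormone-sensitive lipase that also hydrolyses retinyl esters, rose 3.40-fold (1.77 ± 0.15, limma adjusted p = 0.00014), its normalised counts being 108 ± 19.8 without and 367 ± 39.5 with ATRA (SD, n = 3). Plin2, a lipid droplet coat gene, rose 1.75-fold (0.82 ± 0.09) and Retsat, which saturates retinol, 1.72-fold (0.78 ± 0.05, limma adjusted p = 1.87e-05). The lipase genes Lpl (0.65 ± 0.07), Pnpla2 (0.56 ± 0.08) and Pnpla3 (1.33 ± 0.33) rose as well. Without ATRA replicate 1, Dgat1 and Pnpla3 lost their calls (adjusted p = 0.055 and 0.051), and without ATRA replicate 3 Pnpla3 did (0.057).

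Genes of retinoic acid synthesis fell or were not called. Of 15 listed genes 12 matched a row and 8 were tested, of which 0 rose and 4 fell, beside 20.3% and 18.9% of all tested genes, and their median log2 fold change was -0.999. The retinaldehyde dehydrogenase genes Aldh1a3 and Aldh1a2 had log2 fold changes of -2.36 ± 0.27 and -1.67 ± 0.25. That of Adh7, an alcohol dehydrogenase that oxidises retinol, was -2.96 ± 0.36 (limma adjusted p = 0.0006). Vehicle replicates 1 to 3 had 269, 251 and 130 normalised counts for Aldh1a3, 347, 326 and 175 for Aldh1a2, and 388, 241 and 132 for Adh7. The ATRA means were 39.4, 84.7 and 29.1, and vehicle replicate 3 was the lowest vehicle library for each. Bco1, which splits beta-carotene into retinaldehyde, fell by 1.93 ± 0.29, and its lowest vehicle library was replicate 2. Rdh10, the main retinol dehydrogenase of the embryo, whose protein works with DHRS3, was not called (-0.33 ± 0.13, limma adjusted p = 0.085). Rdh10 had 138 ± 10.9 normalised counts without and 110 ± 10.9 with ATRA (SD, n = 3). Of 6 epicardial markers 4 were called lower and 2 were not called, beside 18.9% of all tested genes called lower, with a summed level of 15.3 to 30.3 FPKM in vehicle and 9.89 to 10.6 FPKM after ATRA. Their part in the fall of the synthesis genes was not tested. In bulk RNA, fewer cells of a type and less RNA per cell cannot be told apart.

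**Figure D4:**
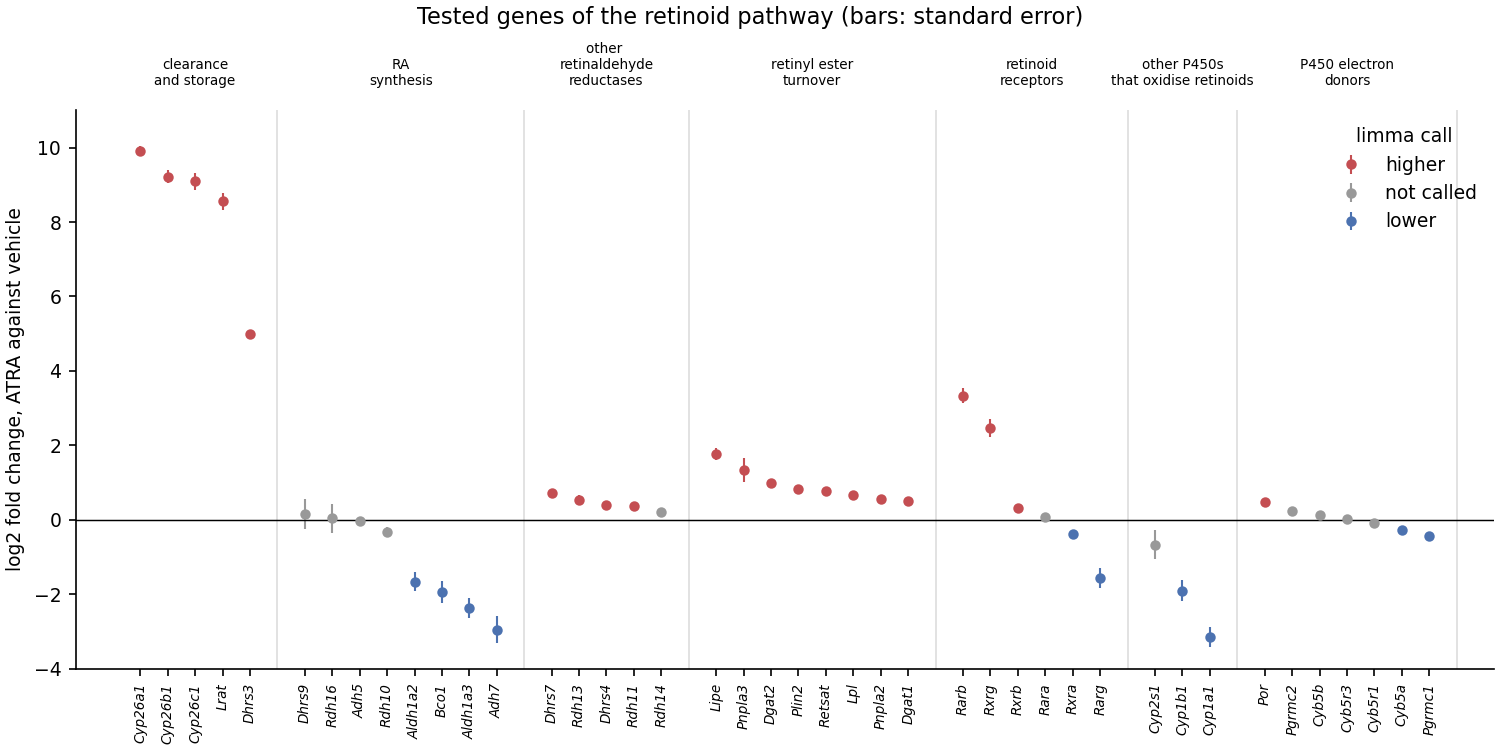
Log2 fold change after ATRA against vehicle, with standard errors from limma, for tested genes of the retinoid pathway by role, without transport and binding genes, coloured by call. The clearance and storage genes stand at 4.98 to 9.91, above the largest rise in any other group shown, 3.33 for Rarb.

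Genes of retinoid transport and binding changed in both directions. Ttr, the carrier of the retinol-binding protein complex in blood, rose 9.71-fold (3.35 ± 0.40, limma adjusted p = 0.00058), its normalised counts being 14.3 ± 7.71 without and 139 ± 2.59 with ATRA (SD, n = 3). Crabp2, which carries retinoic acid to the nucleus, was at 25.6 ± 2.32 and 13.5 ± 4.25 normalised counts (SD, n = 3). Its call as lower (-0.92 ± 0.31, limma adjusted p = 0.045) was lost without any 1 of the 6 libraries, with adjusted p between 0.057 and 0.13. Stra6, the retinol uptake receptor, stayed below the filter.

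Of the 6 receptor genes 3 rose, 2 fell and 1 was not called, beside 39.3% of all tested genes called in either direction. Rarb, itself a textbook target of retinoic acid, rose 9.81-fold (3.33 ± 0.20), which was less than the rise of any of the 5 clearance and storage genes. Rara, the most abundant RAR gene in vehicle at 17.1 FPKM, was not called (0.06 ± 0.08, limma adjusted p = 0.56).

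The libraries held 25434878 to 32052035 reads on genes. Cardiomyocyte markers were abundant in all, with a summed level of 8093 to 10820 FPKM over the 9 matched genes in vehicle and 13480 to 13582 FPKM after ATRA, with 3 higher and 1 lower. Fibroblast markers summed to 807 to 1807 FPKM in vehicle and 769 to 814 FPKM after ATRA, with 1 of 10 higher and 4 lower, and vehicle replicate 3 had the lowest vehicle value. Smooth muscle and pericyte markers summed to 57.5 to 128 FPKM and then 102 to 116 FPKM, endothelial markers to 3.98 to 8.18 and then 7.41 to 8.04 FPKM, and immune markers to 1.39 to 1.97 and then 2.48 to 3.51 FPKM. Of the tested members of these lists, 2 of 6 smooth muscle and pericyte markers were higher and 3 lower. For endothelial markers 1 of 7 was higher and 2 lower, and for immune markers 1 of 3 was higher. Of all tested genes, 20.3% were called higher, 18.9% lower and 39.3% in either direction. In either direction, 44.4% of cardiomyocyte, 50% of fibroblast and 83.3% of smooth muscle and pericyte markers were called. For endothelial and immune markers it was 42.9% and 33.3%. No marker of these cell type lists was at 0 in all libraries. The part of these marker levels in the results was not tested. Without vehicle replicate 3 the log2 fold changes were 9.86 for Cyp26a1, 9.36 for Cyp26b1, 9.17 for Cyp26c1, 5.07 for Dhrs3 and 8.59 for Lrat. That library was the vehicle library nearest to the ATRA libraries in fibroblast markers, so leaving it out does not test their part.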

How the data were processed

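Per the labels' protocols, NEBNext kits were used for poly(A) selection and for the 6 libraries. Per the submitters' processing notes, Trim Galore 0.6.4, STAR 2.7.3a, HTSeq 0.11.2, DESeq2 1.32.0 and the build mRatBN7.2 were used. Annotation release, strand setting and multi-mapping rule: not given in the sources used here, so overlapping genes cannot be told apart.

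Per the file headers, the authors deposited normalised counts (a signal for each gene in each library) and FPKM, and for their own comparison log2 fold changes, the statistic (a score) and the p-value, raw and adjusted. FPKM by the authors equalled the normalised count times a constant of the gene. The deposited values were whole multiples of 1 step per library, for 100% of values within 1e-08, which gave back the reads. In ATRA replicate 2 that step, 1.011, was close to 1, and the values lay within 1.28e-09 of whole multiples of it. The symbol was kept for the row with the highest mean where it repeated, for 205 rows, and 3108 rows had none.

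Genes were tested with limma 3.58.1 (variance trend on) after taking log2(normalised count + 1). edgeR 4.0.16 and DESeq2 1.42.0 were run on the recovered reads as alternatives, beside other pseudocounts, filters, scalings, array weights, a replicate block and leaving out each library. On simulated counts for this comparison (12894 genes), 50 genes were changed at each log2 size and 12694 were left unchanged. Of genes with a log2 change of 1, 94.0% were called, with 88.0% for -1 and 100% for 5. In the data 39.3% of tested genes were called, a far larger share than was changed in the simulation. These percentages therefore describe the simulation only. They do not give the chance of a call in these data, least of all for Cyp26c1 and Lrat with few vehicle reads. No pair of libraries was a duplicate. A floor of 3 reads is 0.0936 to 0.118 reads in CPM. Intervals and floors cover counting error only.

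The genes and lists were chosen with earlier results of these data known. Named are the 5 genes, called or exemplary genes of the fixed pathway lists, the nearest profiles, and, chosen after their values were seen, examples among neighbours and P450s. Of 63 pathway entries, 4 matched no row and were not analysed here. Some results that the naming rule covers are not reported here.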

Additional observations from a re-analysis of the deposited data

How the results depend on the processing

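The 5 genes kept their direction and their call in all 15 alternatives run. The log2 fold change of Cyp26a1 ranged from 9.77 to 10.09, that of Cyp26b1 from 8.99 to 9.43 and that of Dhrs3 from 4.87 to 5.07. Cyp26c1 ranged from 8.06 to 9.50 and Lrat from 7.56 to 8.89, the lowest with a pseudocount of 5 and the highest with DESeq2. With library size alone the median of all tested genes was -0.104 and not 0.004, and 1764 genes were higher and 3775 lower, where the limma test had 2667 and 2483. Leaving out 1 library gave 1715 to 3404 higher and 1645 to 3161 lower genes, the fewest when an ATRA library was left out. The pathway lists had 18 higher and 11 lower members, with 16 to 20 and 9 to 12 over all alternatives. Of the 29 called pathway genes, Crabp2, Cyb5a, Dgat1 and Pnpla3 lost the call in at least 1 alternative, and none reversed. The difference in the log2 ratio of Cyp26a1 to Cyp26b1 was 0.51 to 0.80 when 1 library was left out, and the order of mean levels stayed the same in each group, a check added after seeing the data. Libraries with the same replicate number did not deviate together (correlations of 0.0004, -0.10 and -0.01), so the numbers were not taken as pairs. With the replicate number as a block, 2302 genes were higher and 2135 lower, the log2 fold changes of the 5 genes were 9.91, 9.22, 9.10, 4.98 and 8.56, and the exact permutation p of the ratio was 0.25, the smallest that 3 pairs allow. Cyp26c1 and Lrat had 9 and 10 vehicle reads, so depth makes their folds imprecise. The counting intervals given leave out the spread between libraries.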
